A study of Mus musculus with 128 samples.

Results

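Interferon response genes are switched on in cells that sense interferon, the secreted signal of antiviral defence. The 42 genes described here were chosen by symbol from the 35275 genes of the count table, and all 42 were among the 16886 genes that passed the filter on low counts and were tested. By role they are 4 transcription factors (Stat2, Irf9, Irf7, Irf1), 5 nucleic acid sensors (Ddx58, Ifih1, Dhx58, Zbp1, Eif2ak2), 5 oligoadenylate synthetases and relatives (Oas1a, Oas2, Oas3, Oasl1, Oasl2), 3 IFIT proteins (Ifit1, Ifit2, Ifit3) and 3 genes of the ISG15 system (Isg15, Usp18, Herc6). Another 7 are interferon-induced GTPases (Mx1, Mx2, Gbp2, Igtp, Irgm1, Iigp1, Ifi47), 4 belong to the PARP proteins and their partner (Parp9, Dtx3l, Parp12, Parp14), and 11 are other effectors (Rsad2, Cmpk2, Bst2, Samhd1, Trim30a, Xaf1, Rtp4, Ifi44, Ifi35, Ifi27l2a, Lgals3bp). The symbols are those of the deposited table.

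The genes were followed in liver RNA of wild type male mice, 8 weeks old, in 65 libraries of C57BL6/J and 63 of BALB/c, both inbred strains. All mice had been trained to eat in a fixed evening window, and on the day of the experiment a fast ended at 7 pm, when chow was returned with water or with water holding 20% glucose, sucrose or fructose. Drinking water had been withheld from 4 pm. Livers were taken at 0 h, without food, and at 3, 6 and 12 h of feeding, which gives 26 groups: 24 of 5 libraries, and 2 of 4 libraries (BALB/c with glucose and BALB/c with fructose at 12 h). The only group at 0 h in each strain is that with water. Hours of feeding and time of day moved together, so their parts cannot be told apart. The labels name no infection and no interferon treatment in any group.

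Interferons bind receptors whose kinases, JAK1 and TYK2, phosphorylate STAT proteins such as STAT2. The complex ISGF3, which holds STAT2 and IRF9, binds the interferon-stimulated response element (ISRE) in the promoters of its target genes, whereas the GAS element is bound mainly after interferon gamma. In liver, hepatocytes respond to interferon, and so do Kupffer cells, the resident macrophages. Many of these genes keep a low level without infection.

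Promoters of 31 of the 42 genes were held in a RefSeq table for GRCm38.p6, from 250 bases before to 50 bases after the transcription start site. Both strands were searched for the ISRE core, taken as GAAA, any 2 bases, and GAAA again, which reads as TTTC, any 2 bases and TTTC on the other strand. It was found in 15 of the 31 genes (48.4%), against 1079 of all 27025 genes in the table (3.99%). The GAS letters TTCNNNGAA, the same on both strands, were found in 8 of the 31 (25.8%) and in 9.55% of all genes. Matches of both motifs overlapped in Bst2 alone. Dhx58, Zbp1, Mx1, Iigp1, Parp14, Ifi27l2a, Parp9, Mx2, Usp18, Oas2 and Rtp4 had no entry.

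The 250 bases before the start site are printed for 6 genes that the results below turn on, with ISRE core matches in capitals. All are written 5′ to 3′ on the strand of the gene, and they come from the C57BL/6J reference. Isg15, Ifit1, Rsad2, Igtp and Stat2 carry matches at different distances, and Cmpk2, the neighbour of Rsad2, carries none in this window.
Isg15 (chr4:156200819-156201068, minus strand): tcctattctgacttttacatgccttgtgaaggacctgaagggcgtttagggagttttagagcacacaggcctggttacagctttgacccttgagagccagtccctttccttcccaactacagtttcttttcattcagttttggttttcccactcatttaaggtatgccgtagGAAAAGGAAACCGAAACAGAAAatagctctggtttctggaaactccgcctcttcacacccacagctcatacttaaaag
Ifit1 (chr19:34640639-34640888, plus strand): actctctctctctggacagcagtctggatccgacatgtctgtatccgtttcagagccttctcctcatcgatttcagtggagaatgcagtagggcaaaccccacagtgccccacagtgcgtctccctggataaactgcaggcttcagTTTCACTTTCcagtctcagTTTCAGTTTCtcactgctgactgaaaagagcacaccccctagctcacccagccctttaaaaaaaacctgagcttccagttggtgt
Rsad2 (chr12:26456453-26456702, minus strand): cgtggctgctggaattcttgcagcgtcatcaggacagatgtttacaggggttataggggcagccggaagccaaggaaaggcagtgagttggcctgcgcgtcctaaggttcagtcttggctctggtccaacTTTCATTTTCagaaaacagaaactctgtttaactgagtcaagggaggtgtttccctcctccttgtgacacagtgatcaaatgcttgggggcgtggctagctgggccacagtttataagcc
Igtp (chr11:58199306-58199555, plus strand): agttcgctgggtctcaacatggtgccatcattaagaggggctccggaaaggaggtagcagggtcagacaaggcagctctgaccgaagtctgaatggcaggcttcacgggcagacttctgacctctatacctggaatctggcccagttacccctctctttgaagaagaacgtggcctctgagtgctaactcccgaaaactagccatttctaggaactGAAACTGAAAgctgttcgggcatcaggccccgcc
Stat2 (chr10:128270248-128270497, plus strand): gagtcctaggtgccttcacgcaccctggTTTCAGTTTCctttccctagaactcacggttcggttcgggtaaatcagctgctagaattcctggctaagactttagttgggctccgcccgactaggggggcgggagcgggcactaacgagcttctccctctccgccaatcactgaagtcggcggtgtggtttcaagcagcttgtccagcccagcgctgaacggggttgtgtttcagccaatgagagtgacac
Cmpk2 (chr12:26468965-26469214, plus strand): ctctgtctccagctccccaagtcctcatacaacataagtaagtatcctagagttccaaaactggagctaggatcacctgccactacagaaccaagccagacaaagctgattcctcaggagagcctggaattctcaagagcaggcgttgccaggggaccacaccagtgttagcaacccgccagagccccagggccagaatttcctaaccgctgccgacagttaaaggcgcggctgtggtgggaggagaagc

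In Isg15 3 overlapping matches run together, the first starting 78 bases before the start site. Ifit1 has 2, starting 104 and 85 bases before it, and Rsad2 has 1, at 120 bases. The match of Igtp lies 34 bases and that of Stat2 222 bases before the start. A match describes the letters in this window and no binding was measured.

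Several members are neighbours. Rsad2 and Cmpk2 lie 12.752 kb apart on opposite strands of chromosome 12, Ifit2 and Ifit3 7.112 kb apart on chromosome 19, Oasl2 and Oasl1 11.006 kb apart on chromosome 5, and Dtx3l and Parp9 overlap on opposite strands of chromosome 16. In all, 11 of the 42 overlap another annotated gene, 9 of them a gene on the other strand. The sources used here do not say whether strand was used in counting. If it was not, reads of these 9 cannot be told apart from those of the partner on the other strand. These 9 are Dhx58, Oasl1, Irf1, Irf7, Ifi35, Ifi47, Eif2ak2, Dtx3l and Parp9. On the same strand Irf9 overlaps Rnf31, Igtp overlaps Irgm2 and Ifi47 overlaps Olfr56, which strand could not separate.

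Total counts ran from 18541545 to 43118895 per library (median 24131379), and mitochondrially encoded genes took 3.03% to 14.1% of them. The hepatocyte markers summed to 40200 to 128000 CPM (counts scaled to a common library size) in every library. Values below are CPM, with library sizes scaled by the TMM method. In bulk tissue, fewer cells of a type and less RNA per cell cannot be told apart. Nothing in the labels states outright that each replicate is a separate mouse, and p-values then measure no more than the spread among libraries, which may be technical. The library of BALB/c water 0 h replicate 1 stood apart: its mean level of the 42 genes, taken as log2 CPM relative to the mean of its strain, was -1.24, the lowest of all libraries, and 23 of the 42 genes had their lowest value there, while Usp18 had its highest. The highest mean levels were those of C57BL6/J water 12 h replicate 4 (1.09) and C57BL6/J sucrose 12 h replicate 5 (1.08). In 14 libraries the profile of 500 genes that vary with time lay nearest to another feeding time of the strain. Several results that depend on these libraries are given with and without them. The rises within each strain by itself and the correlations between members are given only with them.

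The genes spanned a wide range of levels. On the length-scaled FPKM values of the authors, averaged over all libraries, Bst2 led with 271 ± 56.2 (SD), followed by Iigp1 with 44.7 ± 26.5, Stat2 with 33.2 ± 13.2 and Lgals3bp with 22.6 ± 5.91. Bst2 encodes tetherin, which holds budding virus particles at the cell surface. Igtp, Irf1 and Irf7, at 15.1 ± 6.27, 14.9 ± 7.87 and 14.9 ± 6.07, stand next to each other in this order with differences well inside their spread. The lowest FPKM values were those of Ifit2 (0.585 ± 0.227), Mx1 (0.466 ± 0.34) and Oas3 (0.143 ± 0.111). A library without a read was found for Ifi44 and for Oas3, 1 library each.

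With feeding on water many genes of this set rose. At 12 h against 0 h, averaged over both strains, 25 of 42 genes rose and 0 fell by edgeR's quasi-likelihood test at an adjusted p of 0.05, and DESeq2 also called 25 higher and 0 lower. Of all 16886 genes tested, 8.31% were called higher in this comparison. The median log2 fold change was 0.59 over the 42 genes and -0.01 over all genes tested, and 40 of the 42 values lay above 0. At an unadjusted p under 0.05 the count was 26, for which no share of all genes is given here.

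**Figure D1:**
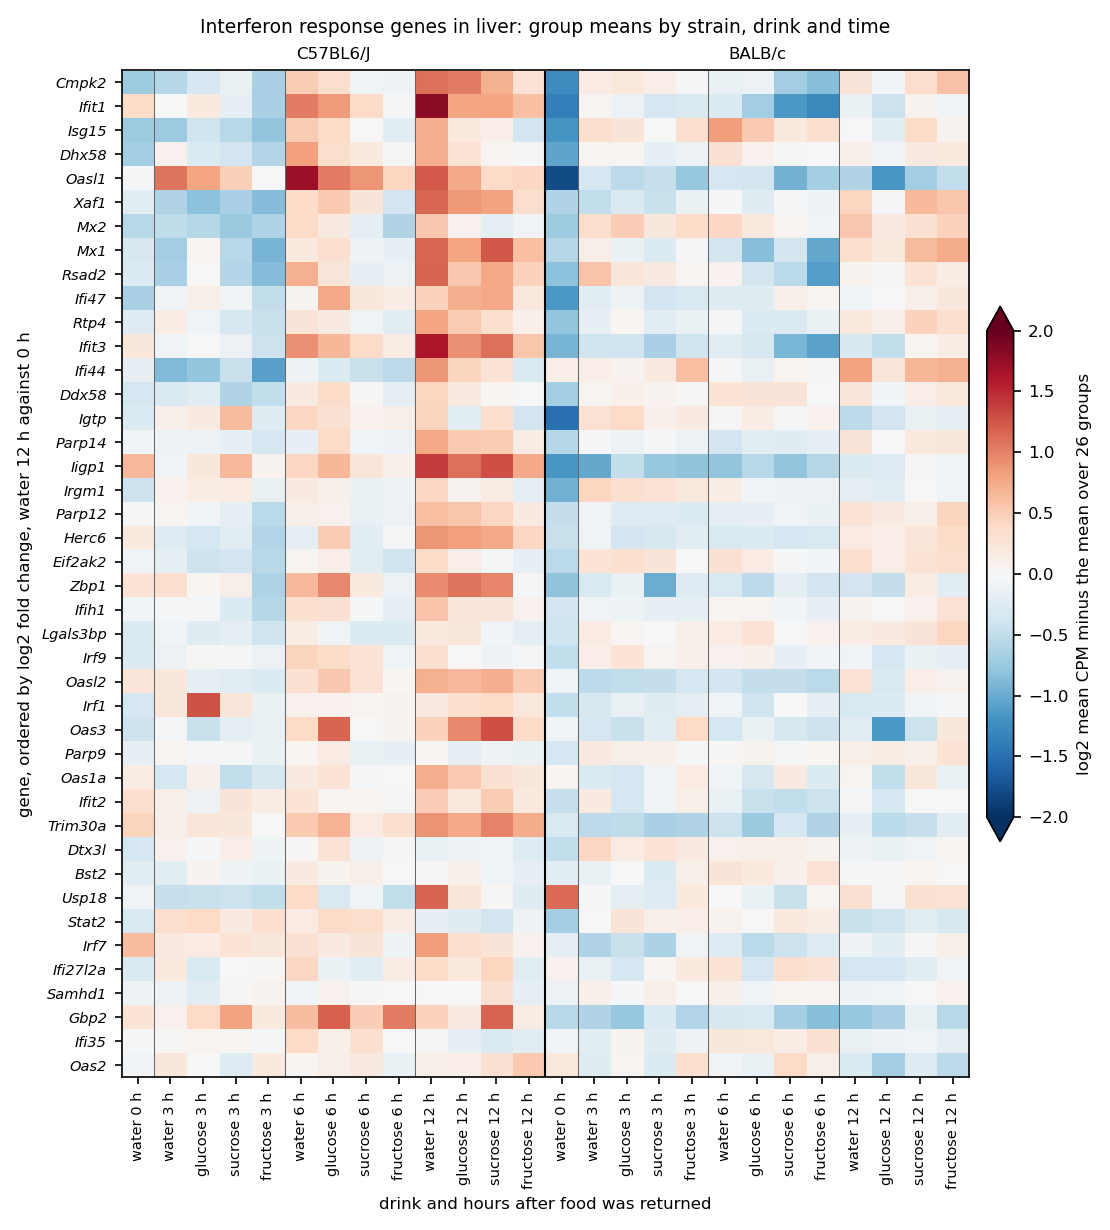
Group means of the 42 genes in 26 groups, as log2 mean CPM minus the mean over all groups (colour, from -2 to 2), with genes in rows ordered by the log2 fold change between 0 h and 12 h on water and groups in columns by strain, time and drink. The column of C57BL6/J water 12 h is red in most rows, and the column of BALB/c water 0 h is blue in most rows, with Usp18 in red.

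Of the nucleic acid sensors 4 of 5 rose at 12 h, with a median log2 fold change of 0.65. Ddx58 encodes RIG-I, which recognises viral RNA (chr4:40203773-40239828, minus strand, protein coding, GRCm38). In C57BL6/J its level was 21.1, 25, 16.8, 16.5 and 25.5 CPM at 0 h and 32.2, 42.3, 25.6, 43.1 and 37.9 CPM at 12 h. In BALB/c it was 10.2, 20.3, 18.8, 17.1 and 17.8 CPM at 0 h and 31.6, 41.9, 27.9, 26.7 and 30.9 CPM at 12 h. The times did not overlap in either strain, and the log2 fold change of Ddx58 was 0.85 ± 0.13 (SE). Its adjusted p by edgeR was 2.84e-07, and all 10 libraries of 12 h lay above the mean of 0 h of their strain, written below as higher in 10 of 10.

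Dhx58 encodes LGP2, a relative of RIG-I without its signalling domain (chr11:100694884-100704271, minus strand, protein coding). In C57BL6/J it had 6.32, 9.25, 4.02, 5.12 and 3.69 CPM at 0 h and 12.5, 13.7, 10.7, 24.2 and 14.4 CPM at 12 h. BALB/c livers had 1.58, 4.81, 4.98, 6.00 and 4.48 CPM at 0 h and 7.15, 12, 9.4, 8.22 and 11.9 CPM at 12 h. Again no library of 12 h reached down to those of 0 h, and Dhx58 had the smallest adjusted p of the set (1.28 ± 0.17 on the log2 scale, 1.41e-09 by edgeR, 10 of 10 higher). Eif2ak2, the kinase PKR that halts translation on sensing double-stranded RNA, rose by 0.65 ± 0.11 (edgeR adjusted p = 4.16e-06), and Ifih1, the sensor MDA5, by 0.53 ± 0.13 (edgeR adjusted p = 0.00146). Zbp1, a sensor of nucleic acid in the Z form, was not called (0.54 ± 0.30, edgeR adjusted p = 0.231).

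The ISG15 system and the IFIT proteins gave some of the larger values. Isg15, a ubiquitin-like protein that is attached to other proteins (chr4:156199424-156200818, minus strand, protein coding), was at 3.21, 6.22, 6.31, 5.85 and 5.43 CPM in C57BL6/J at 0 h and at 10.6, 9.26, 10.8, 29.2 and 14.2 CPM at 12 h. BALB/c gave 0.97, 6.8, 4.39, 3.55 and 3.86 CPM at 0 h and 4.56, 9.94, 11.1, 7.86 and 10.9 CPM at 12 h. The times separated fully in C57BL6/J and overlapped in BALB/c through its replicate 1 at 12 h. The log2 fold change of Isg15 was 1.32 ± 0.22 (edgeR adjusted p = 2.5e-06, higher in 10 of 10). Herc6, the ligase that attaches ISG15 in mice, rose by 0.65 ± 0.16 (10 of 10 higher, edgeR adjusted p = 0.00112), and Usp18, which removes ISG15 and dampens receptor signalling, was not called over both strains and is described with the strains.

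Ifit1, which binds viral RNA that lacks the host cap methylation (chr19:34640871-34650009, plus strand, protein coding), was at 5.40, 6.25, 6.35, 9.42 and 11.3 CPM in C57BL6/J at 0 h and at 14.9, 14.8, 16.5, 43.6 and 15.8 CPM at 12 h. The BALB/c values were 0.849, 3.19, 1.81, 2.91 and 2.90 CPM at 0 h and 0.948, 7.51, 7.44, 5.68 and 5.96 CPM at 12 h. All C57BL6/J libraries of 12 h were above those of 0 h, and in BALB/c 4 of 5 were. The fold change of Ifit1 was 1.34 ± 0.27 on the log2 scale (edgeR adjusted p = 7.9e-05, higher in 9 of 10).

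Ifit3 (chr19:34583531-34588731, plus strand, protein coding) had 8.66, 5.41, 7.91, 8.12 and 6.90 CPM at 0 h and 15.6, 14.8, 16.7, 35.8 and 15.0 CPM at 12 h in C57BL6/J. BALB/c had 1.01, 5.27, 3.76, 2.22 and 4.21 CPM at 0 h and 1.82, 8.06, 7.06, 3.69 and 4.65 CPM at 12 h. The times of Ifit3 separated in C57BL6/J and overlapped in BALB/c, and Ifit3 rose by 1.01 ± 0.24 on the log2 scale (edgeR adjusted p = 0.00111). Ifit2 was not called, at 0.30 ± 0.22 (edgeR adjusted p = 0.404).

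Of the oligoadenylate synthetase family, whose enzymes activate the ribonuclease RNase L, 1 of 5 rose. That gene was Oasl1 (chr5:114923240-114937915, plus strand, protein coding), which lacks the synthetase activity and is known to restrain translation of Irf7. In C57BL6/J Oasl1 had 6.06, 13.2, 5.31, 3.87 and 3.16 CPM at 0 h and 13.2, 15.6, 8.52, 26.9 and 12.5 CPM at 12 h. The BALB/c libraries had 2.02, 1.34, 2.08, 2.40 and 1.54 CPM at 0 h and 4.45, 4.82, 4.42, 3.75 and 4.11 CPM at 12 h. The times separated in BALB/c, and in C57BL6/J replicate 2 of 0 h lay among the libraries of 12 h. Oasl1 rose by 1.23 ± 0.19 (10 of 10 higher, edgeR adjusted p = 3.26e-07), while the log2 fold changes of Oas1a, Oas2, Oas3 and Oasl2 were 0.31, -0.16, 0.34 and 0.42, none of them called.

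Interferon-induced GTPases act on virus particles and on the membranes around intracellular parasites, and 6 of 7 rose. Irgm1 rose by 0.80 ± 0.14 (edgeR adjusted p = 5.67e-06), Ifi47 by 1.10 ± 0.19 (edgeR adjusted p = 5.82e-06), Mx2 by 1.18 ± 0.25 (edgeR adjusted p = 0.000145) and Igtp by 0.84 ± 0.22 (edgeR adjusted p = 0.00256). Irgm1 and Igtp regulate the effector GTPases of this family. Mx2 is annotated as a polymorphic pseudogene in the deposited table. Gbp2, a guanylate-binding protein, had a log2 fold change of 0.00 ± 0.29 (edgeR adjusted p = 1.00).

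Iigp1, an effector GTPase and the most abundant of the 7 in CPM, was at 282, 154, 184, 175 and 182 CPM in C57BL6/J at 0 h and at 274, 389, 204, 417 and 352 CPM at 12 h. BALB/c had 6.02, 86.0, 59.5, 51.6 and 75.4 CPM at 0 h and 40.7, 170, 130, 78.9 and 96.8 CPM at 12 h. The times overlapped in both strains. The log2 fold change of Iigp1 was 0.82 ± 0.22 (edgeR adjusted p = 0.00339, higher in 9 of 10), and it was no longer called when the other groups were left out of the fit (0.82) or among the 94 libraries without a letter appended to their name (0.64). Mx1 (chr16:97447035-97462907, minus strand), which blocks influenza-like viruses and is nonfunctional in many inbred strains, stayed near 1 CPM at 0 h, between 0.458 and 1.94 CPM for C57BL6/J and between 0.566 and 1.34 CPM for BALB/c. At 12 h it had 2.90, 1.44, 3.18, 6.54 and 1.91 CPM in C57BL6/J, against 0.766, 1.91, 2.38, 1.68 and 2.20 CPM in BALB/c, with overlap in both strains. The rise of Mx1 was 1.17 ± 0.32 (edgeR adjusted p = 0.00452, higher in 9 of 10).

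Of the PARP proteins, which attach ADP-ribose to proteins, and their partner Dtx3l, 3 of 4 rose, all but Dtx3l. Parp14 (chr16:35832874-35871544, minus strand, protein coding) was at 26.3, 23.2, 27.4, 21.2 and 23.1 CPM in C57BL6/J at 0 h and at 39.9, 49.4, 33.5, 51.9 and 40.9 CPM at 12 h. BALB/c libraries had 13.1, 19.3, 18.5, 16.7 and 17.0 CPM at 0 h and 25.5, 41.5, 30.7, 24.6 and 28.6 CPM at 12 h. Every library of 12 h lay above every library of 0 h in both strains. The log2 fold change of Parp14 was 0.83 ± 0.12 (edgeR adjusted p = 7.69e-08), that of Parp12 0.70 ± 0.12 (edgeR adjusted p = 2.21e-06), both higher in 10 of 10 libraries. Parp9 rose by 0.33 ± 0.11 (edgeR adjusted p = 0.0246), a call that was lost without BALB/c water 0 h replicate 1 (0.26) and without replicate 2, 3, 4 or 5 of every group (0.30 to 0.34). Dtx3l, the ubiquitin ligase that pairs with Parp9, had 0.29 ± 0.14 (edgeR adjusted p = 0.163).

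Of the 11 other effectors 6 rose. Cmpk2, a mitochondrial nucleotide kinase (chr12:26469204-26479835, plus strand, protein coding), had the highest log2 fold change of the 42 genes. It was at 3.31, 3.29, 1.94, 2.32 and 3.69 CPM in C57BL6/J at 0 h and at 7.22, 10.2, 7.81, 15.6 and 10.4 CPM at 12 h. BALB/c had 0.525, 2.03, 1.63, 1.75 and 3.99 CPM at 0 h and 1.90, 8.25, 7.87, 4.36 and 6.03 CPM at 12 h. The times separated in C57BL6/J and overlapped in BALB/c, and the log2 fold change of Cmpk2 was 1.66 ± 0.24 (edgeR adjusted p = 2.17e-08, higher in 9 of 10). Its neighbour Rsad2, the antiviral enzyme viperin, rose by 1.17 ± 0.25 (edgeR adjusted p = 0.000164).

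Xaf1, a protein linked to apoptosis, rose by 1.20 ± 0.23 (edgeR adjusted p = 2.88e-05) and Rtp4, a receptor transport protein, by 1.01 ± 0.20 (edgeR adjusted p = 3.63e-05), each in 10 of 10 libraries. Ifi44 and the secreted glycoprotein Lgals3bp rose by 0.86 ± 0.29 and 0.51 ± 0.14 (edgeR adjusted p = 0.03 and 0.00476). Without BALB/c water 0 h replicate 1 the change of Ifi44 was 0.75 and no longer called, and it was also lost without replicate 1, 2, 3 or 4 of every group (0.79 to 0.97). Lgals3bp was not called without replicate 2 (0.43). Bst2, Samhd1, Trim30a, Ifi35 and Ifi27l2a were not called, with values from -0.04 (Ifi35) to 0.29 (Trim30a). Bst2 (chr8:71534264-71537437, minus strand, protein coding) ranged from 119 to 229 CPM in C57BL6/J at 0 h and from 151 to 263 CPM at 12 h. BALB/c spanned 119 to 211 CPM and 148 to 274 CPM, so that the times overlapped in both strains.

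Of the 4 transcription factors 1 was called at 12 h, and the median log2 fold change of this group was 0.26. Irf9, the DNA-binding part of ISGF3, rose by 0.50 ± 0.15 (edgeR adjusted p = 0.00763), a call that was lost without replicate 5 of every group (0.43). Stat2, its partner (chr10:128270576-128292849, plus strand, protein coding), was at 60.5, 144, 106, 154 and 112 CPM in C57BL6/J at 0 h and at 137, 85.7, 117, 162 and 126 CPM at 12 h. In BALB/c Stat2 was at 26.1, 107, 105, 133 and 69.4 CPM at 0 h and at 50, 87.2, 91.9, 156 and 135 CPM at 12 h. The times overlapped widely, and the log2 fold change was 0.18 ± 0.21 (edgeR adjusted p = 0.641). Irf7 and Irf1, factors that amplify interferon production and the response to interferon gamma, had 0.15 ± 0.22 and 0.35 ± 0.20 (edgeR adjusted p = 0.721 and 0.243).

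Each strain was also tested by itself within the same model. In C57BL6/J 19 of 42 genes rose (3.32% of all genes were called higher there), with a median log2 fold change of 0.68, and in BALB/c 17 of 42 (5.04% of all genes), with a median of 0.57. All 5 libraries of 12 h lay above all 5 of 0 h for 13 of the 42 genes in C57BL6/J (2.37% of all genes) and for 9 in BALB/c (2.47% of all genes). In C57BL6/J these were Irf9, Ddx58, Dhx58, Ifit1, Ifit3, Isg15, Ifi47, Parp14, Rsad2, Cmpk2, Xaf1, Rtp4 and Ifi44, and in BALB/c Ddx58, Dhx58, Eif2ak2, Oasl1, Mx2, Ifi47, Parp12, Parp14 and Xaf1.

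**Figure D2:**
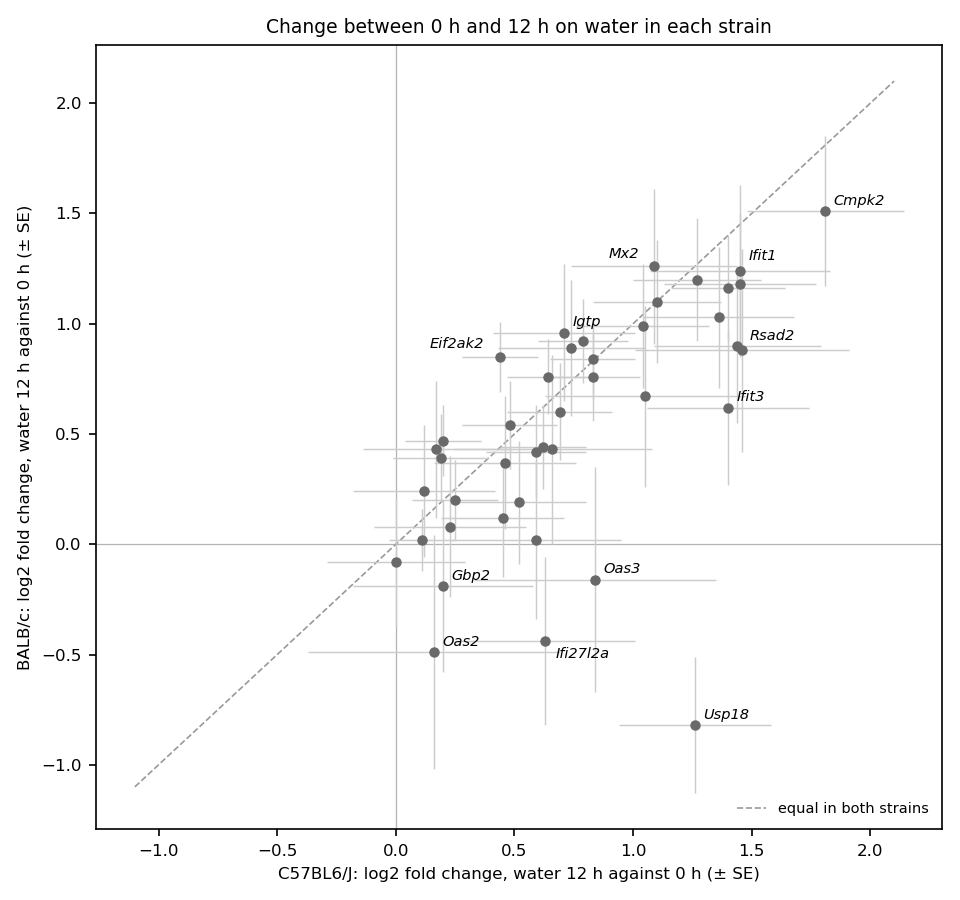
Log2 fold change between 0 h and 12 h on water in C57BL6/J (horizontal axis) and BALB/c (vertical axis) for each of the 42 genes, with bars for 1 SE, both from edgeR. Most points lie near the dashed line of equal values, Cmpk2 is at the top right (1.81 and 1.51), and Usp18 lies far below the line (1.26 and -0.82).

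Sums of cell type markers did not all stay level over the same libraries. On water the median hepatocyte sum was 81400 CPM at 0 h and 78300 CPM at 12 h, and that of 11 Kupffer cell and macrophage markers 313 and 258 CPM (ranges 173 to 384 and 190 to 444). The sum of 5 neutrophil markers had a median of 3.29 CPM (1.79 to 8.92) at 0 h and 7.20 CPM (2.64 to 13.1) at 12 h, and 10 T and NK cell markers had 2.99 and 3.53 CPM. The neutrophil marker Ly6g was at 0 in 71 libraries. The 10 skeletal muscle markers had a median of 218 CPM at 0 h and 2.00 CPM at 12 h. What part these cells have in the values of the 42 genes was not tested.

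In the library with the highest mean level, C57BL6/J water 12 h replicate 4, 14 of the 42 genes had their highest value, and mitochondrial genes took 12.8% of its counts. Without it and the other high library of 12 h, 24 genes rose at 12 h. The count was also 24 without BALB/c water 0 h replicate 1. Under every one of 17 other settings it lay between 20 and 26, and 19 of the 25 genes were called under all of them, the exceptions being Irf9, Igtp, Iigp1, Parp9, Ifi44 and Lgals3bp.

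At 3 h and 6 h part of the set was already higher. These comparisons share the libraries of 0 h with that at 12 h, so their values are given side by side and not as separate evidence. At 3 h 15 of 42 genes rose and 1 fell (12.7% of all genes were called higher and 12.7% lower), with a median log2 fold change of 0.25. At 6 h 22 rose and 0 fell (13.9% of all genes were called higher), with a median of 0.43, and DESeq2 called 0 lower as well. Both counts depended on the libraries numbered 1: without replicate 1 of every group, 7 genes rose at 3 h and 11 at 6 h, while at 12 h 25 did. They were 11 and 18 without BALB/c water 0 h replicate 1 alone.

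**Figure D3:**
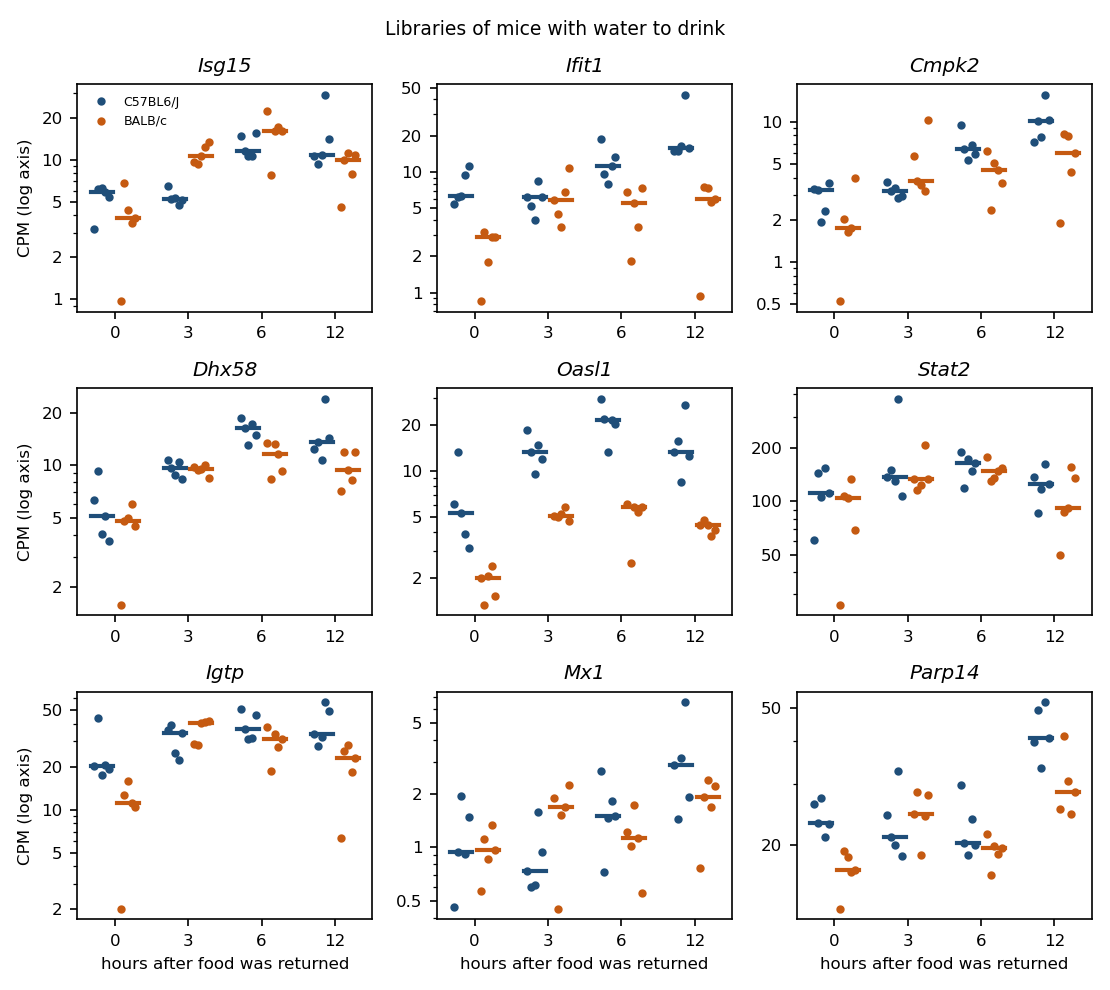
CPM on a log axis of 9 of the genes in each library of mice with water, at 0, 3, 6 and 12 h after food was returned, with C57BL6/J in blue and BALB/c in orange (points: libraries, bars: medians). Parp14 is highest in the columns of 12 h, Dhx58 and Oasl1 are higher from 3 h on, and the lowest point of most panels is a library of BALB/c at 0 h.

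The genes differed in their course. Irgm1 had log2 fold changes of 0.94, 0.85 and 0.80 at 3, 6 and 12 h and Igtp of 1.08, 1.11 and 0.84, each called at all 3 times over both strains. By strain, Igtp gave 0.36, 0.69 and 0.71 in C57BL6/J, none called, and 1.79, 1.52 and 0.96 in BALB/c, each called. Irgm1 gave 0.5 at 3 h in C57BL6/J, not called, and was called at the later times there and at each time in BALB/c. Oasl1 gave 1.28, 1.59 and 1.23, and Dhx58 0.94, 1.43 and 1.28, also called at each time. Isg15 gave 0.75, 1.63 and 1.32, and Ddx58 0.40, 0.75 and 0.85, again called at each time, but at 3 h their calls rested on single replicate numbers. Without replicate 1 of every group the 3 h values were 0.55 for Isg15 and 0.35 for Ddx58, neither called (edgeR adjusted p = 0.074 and 0.095). Ddx58 was also not called at 3 h without replicate 4 (0.27) or without BALB/c water 0 h replicate 1 alone (0.33). In C57BL6/J Isg15 had 6.49, 5.26, 5.36, 4.76 and 5.14 CPM at 3 h, which overlaps with 0 h, and 14.9, 11.5, 10.7, 10.7 and 15.6 CPM at 6 h. In BALB/c it had 9.69, 9.30, 10.7, 12.3 and 13.5 CPM at 3 h, all above the libraries of 0 h.

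Stat2 and Dtx3l were called at 3 h and 6 h and not at 12 h. Stat2 gave 0.68 at 3 h (edgeR adjusted p = 0.0114) and 0.61 at 6 h (edgeR adjusted p = 0.0218), against 0.18 at 12 h. Its call at 3 h was lost without replicate 1 (0.54) or 4 (0.52) of every group, and that at 6 h without replicate 1 (0.34), 3 (0.63) or 5 (0.54), or without BALB/c water 0 h replicate 1 alone (0.49). Dtx3l gave 0.67, 0.48 and 0.29, and its call at 6 h was lost without replicate 1 (0.44, edgeR adjusted p = 0.0527). Parp14 was the reverse, with 0.25 and 0.04 at 3 and 6 h, neither called, and 0.83 at 12 h. Herc6 had -0.04, -0.11 and 0.65, Iigp1 -0.30, 0.06 and 0.82, and Mx1 0.16, 0.36 and 1.17, called at 12 h in each case. At 3 h the gene that fell was Usp18, by 0.77 ± 0.22 (edgeR adjusted p = 0.00512), and without BALB/c water 0 h replicate 1 its value was -0.34 and not called.

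By strain, the early counts were unequal. At 3 h 2 of 42 genes rose in C57BL6/J (5.35% of all genes) and 17 rose and 1 fell in BALB/c (9.14% of all genes were called higher and 9.03% lower), with medians of 0.02 and 0.53. At 6 h 8 rose in C57BL6/J (6.53% of all genes) and 16 rose and 1 fell in BALB/c (9.27% and 9.6% of all genes). The difference between strains at 3 h and at 6 h was not tested, and in BALB/c these values rest on a 0 h group that holds the library with the lowest mean level.

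Time was also compared over all 4 drinks, with 40 libraries of 6 h and 38 of 12 h, which leaves out those of 0 h. At 12 h against 6 h 19 of 42 genes rose and 7 fell, where 25.4% of all genes were called higher and 26.2% lower. The median log2 fold change was 0.18. The count of falls was lower without some libraries: without replicate 1, 2, 3 or 5 of every group they were 3 or 4, and 3 when the 14 libraries close to another time were dropped.

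Genes that rose between 6 h and 12 h included Herc6, Parp14, Parp12, Mx1 and Iigp1. Herc6 had a median of 7.97 CPM (5.33 to 20.8) at 6 h and 14.4 CPM (8.03 to 23.2) at 12 h over 20 C57BL6/J libraries each. In BALB/c it had 6.99 CPM (5.30 to 9.29) in 20 libraries and 10.6 CPM (6.02 to 14.0) in 18. The ranges overlapped in both strains, and 35 of 38 libraries of 12 h lay above the mean of 6 h of their strain and drink (log2 fold change 0.62 ± 0.08, edgeR adjusted p = 4.95e-11). Parp14 gave 0.46 ± 0.06 (edgeR adjusted p = 5.54e-10, 34 of 38 higher) and Parp12 0.42 ± 0.06 (edgeR adjusted p = 2.06e-09, 36 of 38).

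Mx1 gave the largest log2 fold change of the set between these times, 1.00 ± 0.16 (edgeR adjusted p = 7.14e-08, 32 of 38 higher). In C57BL6/J its median was 1.29 CPM at 6 h and 2.37 CPM at 12 h, and in BALB/c 0.87 and 1.97 CPM. Iigp1 rose by 0.66 ± 0.11 (edgeR adjusted p = 1.75e-07, 35 of 38), with medians of 150 and 264 CPM for C57BL6/J and 73.0 and 112 CPM for BALB/c. Cmpk2 rose by 0.67 ± 0.12 (edgeR adjusted p = 4.58e-07), and all 3 IFIT genes rose, Ifit1 by 0.57, Ifit3 by 0.50 and Ifit2 by 0.27. The call of Ifit2 was lost without replicate 1, 2, 4 or 5 of every group (0.29, 0.24, 0.28 and 0.24), and among the libraries without a letter appended to their name its value was 0.07.

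Stat2 went the other way. Its median moved from 168 CPM (104 to 262) at 6 h to 122 CPM (61.6 to 216) at 12 h in C57BL6/J and from 144 CPM (109 to 237) to 106 CPM (50 to 165) in BALB/c, with wide overlap. The log2 fold change of Stat2 was -0.46 ± 0.11 (edgeR adjusted p = 0.000161, lower in 33 of 38). Ifi35, a small protein that forms a complex with Nmi, was also lower at 12 h (-0.37 ± 0.10, edgeR adjusted p = 0.00186), and so were Bst2 (-0.17), Irf9 (-0.19), Dtx3l (-0.19), Igtp (-0.27) and Oasl1 (-0.24). Of these 7 falls, those of Stat2 and Ifi35 were called under all 17 other settings. The strain difference in the change from 6 h to 12 h was called for 0 of 42 genes by edgeR and by DESeq2. Of all genes 1.85% were called in either direction. Of the 42 genes 0 had an unadjusted p under 0.05.

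Between 3 h and 6 h over all drinks, which shares the libraries of 6 h with the last comparison, 8 of 42 genes rose and 1 fell (14.7% of all genes higher, 14.5% lower). The 5 with the smallest p among those that rose were Xaf1 (0.59 ± 0.11, edgeR adjusted p = 2.61e-05), Ddx58 (0.32 ± 0.07, edgeR adjusted p = 8.72e-05), Isg15 (0.52 ± 0.11, edgeR adjusted p = 0.000107), Dhx58 (0.38 ± 0.08, edgeR adjusted p = 0.000127) and Bst2 (0.24 ± 0.06, edgeR adjusted p = 0.00204). Xaf1 had medians of 2.76 and 5.19 CPM at 3 and 6 h in C57BL6/J and of 3.62 and 4.01 CPM in BALB/c. Irgm1 was the gene that fell (-0.20 ± 0.07, edgeR adjusted p = 0.0241), and it was not called without replicate 2, 4 or 5 of every group (-0.20, -0.18 and -0.18). Bst2 was not called without replicate 5 (0.18).

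**Figure D4:**
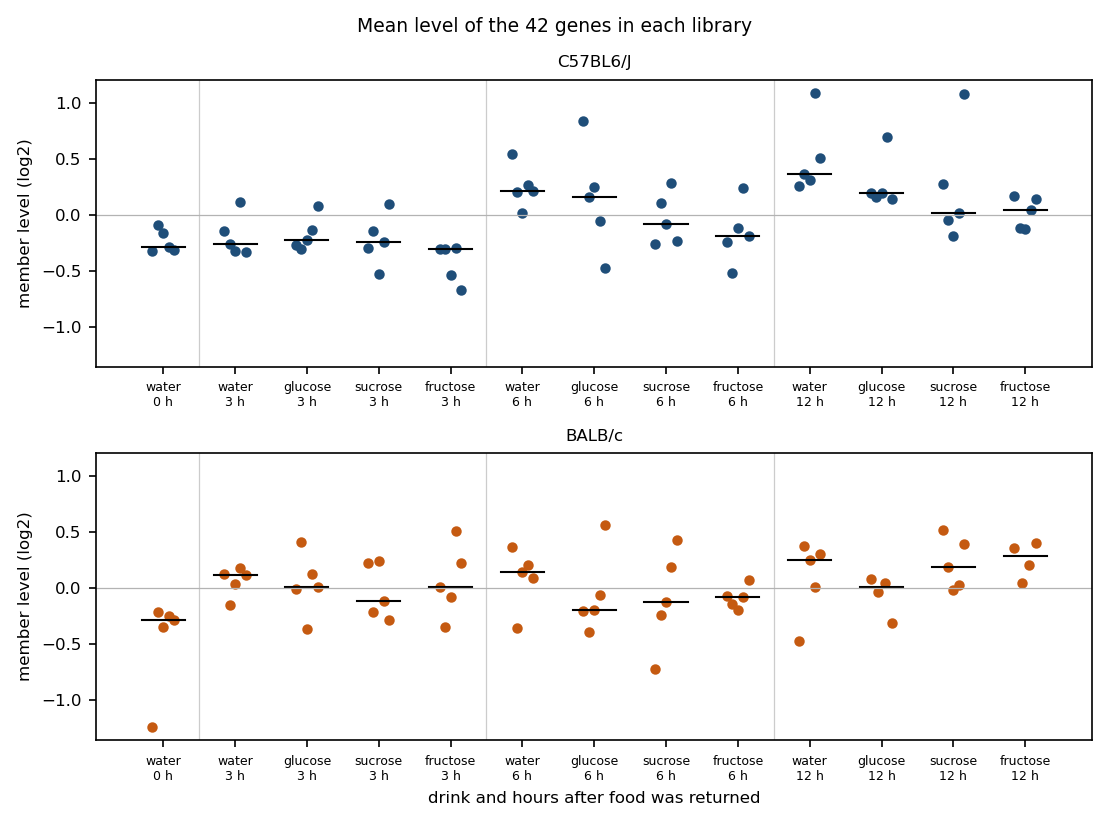
Mean level of the 42 genes in each library (log2 CPM minus each gene's mean over the libraries of the strain, averaged over genes), by drink and hours after food was returned, with C57BL6/J above and BALB/c below (points: libraries, bars: medians). BALB/c water 0 h replicate 1 is the lowest point at -1.24, and the highest points at 12 h in C57BL6/J, 1.09 with water and 1.08 with sucrose, are single libraries above the others of their groups.

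Few of these genes were called with sugar in the drink. Each sugar was set against water of the same time over both strains, and the 3 sugars share those water libraries. With glucose 0 of 42 genes were called at 3, 6 or 12 h by edgeR or by DESeq2. Of all genes 0.19%, 0.906% and 0.0651% were called in either direction. With sucrose 0 were called at 3 h and 12 h by either tool (2.92% and 0.00592% of all genes in either direction). At 6 h with sucrose 1, Oasl1, fell (0.563% of all genes were called lower). With fructose 2 fell at 3 h (3.34% of all genes were called lower) and 4 fell at 6 h (0.646%). At 12 h with fructose 0 were called by either tool (0.00592% of all genes in either direction). All these shares are at an adjusted p of 0.05. At an unadjusted p under 0.05 the counts with glucose were 1, 4 and 4 at 3, 6 and 12 h. They were 2, 11 and 4 with sucrose and 5, 12 and 7 with fructose. No share of all genes at that threshold is given here, so these counts cannot be set against one.

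At 6 h with fructose the genes that fell were Oasl1, Rsad2, Ifit1 and Eif2ak2. Ifit1 was at 7.39, 3.52, 5.31, 9.27 and 4.05 CPM in C57BL6/J with fructose and at 18.9, 9.60, 7.89, 11.2 and 13.3 CPM with water. The BALB/c libraries had 2.12, 2.11, 3.73, 1.63 and 2.75 CPM with fructose and 6.82, 1.84, 5.55, 3.48 and 7.32 CPM with water. The drinks overlapped in both strains, and Ifit1 was lower than the mean with water in 10 of 10 libraries (-1.03 ± 0.27, edgeR adjusted p = 0.0282).

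Rsad2 had 4.97, 3.01, 5.83, 5.42 and 5.28 CPM with fructose and 14.8, 9.49, 3.94, 8.03 and 7.12 CPM with water in C57BL6/J at 6 h. BALB/c had 1.79, 2.80, 3.01, 2.17 and 2.59 CPM with fructose and 9.34, 3.34, 6.08, 3.24 and 6.13 CPM with water. In BALB/c all libraries with fructose lay below all with water, and in C57BL6/J the drinks overlapped (-1.0 ± 0.25 on the log2 scale, edgeR adjusted p = 0.0182, lower in 10 of 10).

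Oasl1 at 6 h had 9.54, 7.48, 8.23, 10.4 and 8.17 CPM with fructose in C57BL6/J, all below the 29.6, 21.7, 13.2, 21.6 and 20.2 CPM with water. The BALB/c values were 5.71, 3.53, 4.09, 2.31 and 4.91 CPM with fructose and 6.08, 2.51, 5.86, 5.39 and 5.84 CPM with water, which overlap. Against water it fell by 0.80 ± 0.19 with fructose (edgeR adjusted p = 0.0116, lower in 9 of 10) and, against the same water libraries, by 0.71 ± 0.19 with sucrose (edgeR adjusted p = 0.0321, lower in 10 of 10). At 3 h Oasl1 fell with fructose by 0.74 ± 0.19 (edgeR adjusted p = 0.00559, lower in 9 of 10) and Parp12 by 0.39 ± 0.12 (edgeR adjusted p = 0.027). Eif2ak2 fell by 0.41 ± 0.11 at 6 h with fructose (edgeR adjusted p = 0.0385, lower in 10 of 10).

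None of these calls under sugar held under all other settings. Without the 34 libraries whose names carry an appended letter, 0 genes were lower with sucrose at 6 h or with fructose at 3 h or 6 h. Without 1 replicate number at a time, the count with fructose at 6 h was 0 to 2 (0 without replicate 1), and with the other groups left out of the fit it was 9. The median log2 fold change over the 42 genes with fructose was -0.13, -0.21 and -0.22 at 3, 6 and 12 h, and with glucose 0.02, -0.06 and -0.21. With sucrose it was -0.06, -0.16 and -0.08. Of the 42 values, those above 0 numbered 14, 6 and 6 with fructose at these times. They numbered 13, 7 and 14 with sucrose, and 22, 16 and 7 with glucose. Whether the set as a whole shifted was not tested.

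Strain was compared next, BALB/c against C57BL6/J, first at 0 h without food. There 10 of 42 genes were lower in BALB/c and 1 was higher (7.67% of all genes were called lower and 8.63% higher), and the median log2 difference was -0.39 (0.02 over all genes). Iigp1 had 6.02, 86.0, 59.5, 51.6 and 75.4 CPM in BALB/c and 282, 154, 184, 175 and 182 CPM in C57BL6/J, with no overlap. The difference was -1.81 ± 0.31 (edgeR adjusted p = 2.92e-06), and it was not called when these 10 libraries were fitted by themselves (-1.83). Oasl1, with 1.34 to 2.40 CPM in BALB/c and 3.16 to 13.2 CPM in C57BL6/J, differed by -1.76 ± 0.28 (edgeR adjusted p = 4.04e-07), also with no overlap.

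Ifit1 at 0 h had 0.849 to 3.19 CPM in BALB/c and 5.40 to 11.3 CPM in C57BL6/J (-1.73 ± 0.40, edgeR adjusted p = 0.000492). Igtp had 2.02, 12.6, 15.8, 11.1 and 10.5 CPM in BALB/c and 20.2, 44.0, 17.5, 20.6 and 19.1 CPM in C57BL6/J (-1.23 ± 0.31, edgeR adjusted p = 0.00198). Neither overlapped between strains. Without BALB/c water 0 h replicate 1 and C57BL6/J water 0 h replicate 2, its high library, the difference of Igtp was -0.63 and not called. Ifit3 (-1.17 ± 0.35, edgeR adjusted p = 0.0114) lost its call without the BALB/c library (-0.93).

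The remaining genes lower in BALB/c at 0 h were Parp14 (-0.52), Eif2ak2 (-0.47), Herc6 (-0.64), Trim30a (-0.74) and Irgm1 (-0.54), and none of these 5 kept its call under all other settings. Without BALB/c water 0 h replicate 1, 5 of the 42 genes were lower (Oasl1, Iigp1, Ifit1, Igtp and Parp12) and 0 higher, and without both libraries of 0 h that stood apart 3 were lower. Usp18 was the gene that was higher, by 1.22 ± 0.32 (edgeR adjusted p = 0.00245). It had 56.7, 9.25, 9.46, 13.2 and 12.8 CPM in BALB/c and 7.39, 7.59, 8.99, 7.97 and 11.6 CPM in C57BL6/J, and without the library at 56.7 CPM the difference was 0.36 and not called.

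Over all 13 conditions of drink and time, 18 of 42 genes were lower in BALB/c and 7 were higher. As 26.5% of all genes were called lower and 28.7% higher in this comparison, strain differences were common among all genes. The median difference of the 42 genes was -0.18 (0.01 over all genes). No gene of the set separated all 63 BALB/c libraries from all 65 C57BL6/J libraries (0.545% of all genes lay below in all libraries and 0.497% above).

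**Figure D5:**
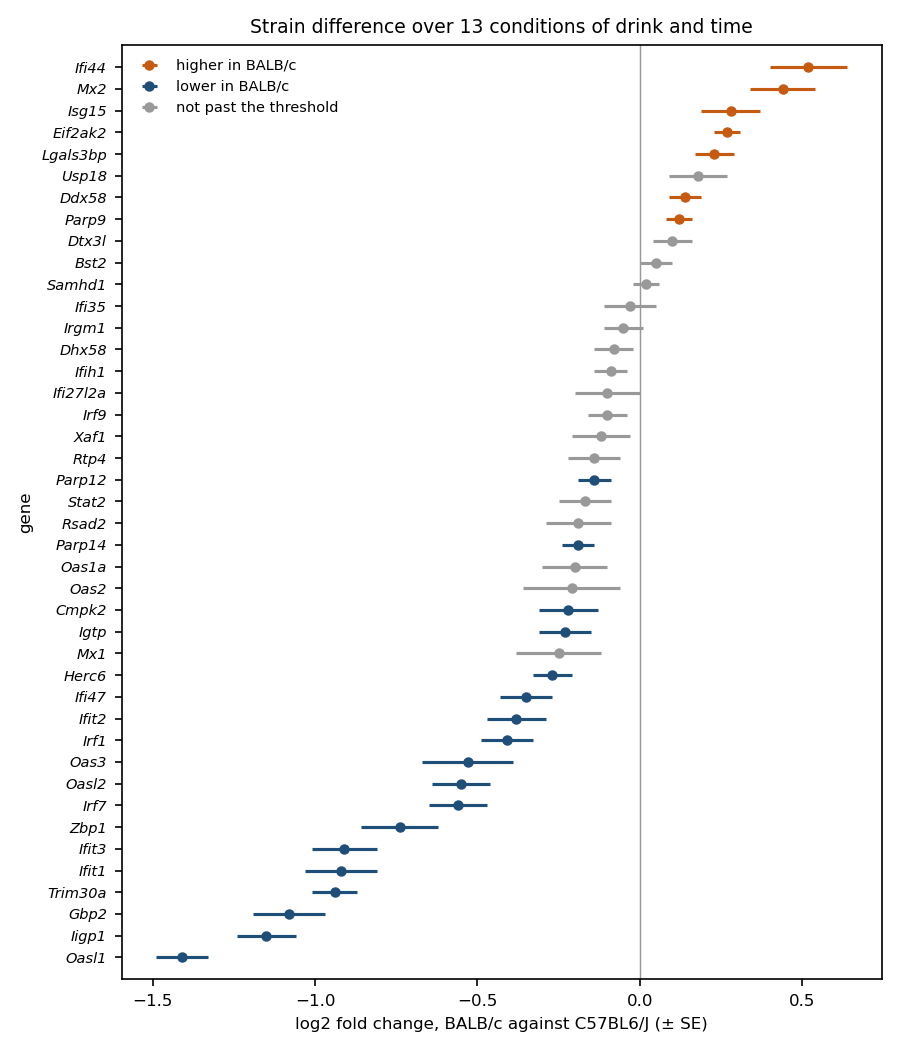
Log2 fold change of BALB/c against C57BL6/J over 13 conditions with bars for 1 SE, for the 42 genes in order, from edgeR (blue: lower in BALB/c, orange: higher, grey: not past an adjusted p of 0.05). Oasl1 is lowest at -1.41, and Ifi44 highest at 0.52.

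Oasl1 differed most, with a median of 3.96 CPM (1.34 to 9.17) in BALB/c and 9.93 CPM (3.16 to 29.6) in C57BL6/J. Its level was lower than the C57BL6/J mean of the same drink and time in 63 of 63 BALB/c libraries (-1.41 ± 0.08, edgeR adjusted p = 7.6e-34). Iigp1 had a median of 78.2 CPM (6.02 to 184) in BALB/c and 168 CPM (91.8 to 417) in C57BL6/J, and 43 BALB/c libraries lay below every C57BL6/J library (-1.15 ± 0.09, edgeR adjusted p = 4.12e-23). Trim30a, a TRIM protein, had medians of 2.77 and 5.37 CPM (-0.94 ± 0.07, edgeR adjusted p = 1.2e-21, lower in 62 of 63), and Gbp2 of 1.5 and 2.64 CPM (-1.08 ± 0.11, edgeR adjusted p = 5.93e-16, lower in 63 of 63).

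Ifit3 and Ifit1 followed, with -0.91 ± 0.10 (edgeR adjusted p = 1.04e-14) and -0.92 ± 0.11 (edgeR adjusted p = 4.95e-13), and Ifit2 was lower by a smaller amount (-0.38), so that all 3 IFIT genes were lower in BALB/c. The means of Irf1, Oasl1, Oasl2, Gbp2, Iigp1 and Trim30a were lower in BALB/c in 13 of 13 conditions. Irf7 (-0.56) and Irf1 (-0.41) were both lower, and Stat2 and Irf9 were not called (-0.17 and -0.10).

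The 7 genes higher in BALB/c were Eif2ak2, Mx2, Ifi44, Lgals3bp, Isg15, Ddx58 and Parp9. Eif2ak2 had a median of 17.3 CPM (8.89 to 24.6) in BALB/c and 13.9 CPM (9.10 to 29.1) in C57BL6/J (0.27 ± 0.04, edgeR adjusted p = 1.08e-07, higher in 46 of 63), although at 0 h alone it was lower in BALB/c. Mx2 gave 0.44 ± 0.10 (edgeR adjusted p = 5.1e-05), Ifi44 0.52 ± 0.12 (edgeR adjusted p = 7.67e-05), Lgals3bp 0.23 ± 0.06 (edgeR adjusted p = 0.000179) and Isg15 0.28 ± 0.09 (edgeR adjusted p = 0.00373). Those of Ddx58 (0.14), Isg15 and Parp9 (0.12) were lost under at least 1 other setting, such as leaving out replicate 3 (0.11, 0.23 and 0.07). The median sum of B cell markers was 7.00 CPM for C57BL6/J and 16.1 CPM for BALB/c, and that of skeletal muscle markers 29.9 and 116 CPM. Their part in these differences, and that of aligning BALB/c reads to a C57BL/6J assembly, was not tested.

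Whether the strains differed in the rise from 0 h to 12 h on water was tested as an interaction. Of 42 genes 1 was called, Usp18, with BALB/c minus C57BL6/J at -2.07 ± 0.44 (edgeR adjusted p = 0.0123; 0.195% of all genes were called lower). In C57BL6/J Usp18 went from 7.39, 7.59, 8.99, 7.97 and 11.6 CPM at 0 h to 13.3, 15.3, 9.80, 37.5 and 28.2 CPM at 12 h, a rise of 1.26 ± 0.32 (edgeR adjusted p = 0.00424). The BALB/c libraries went from 56.7, 9.25, 9.46, 13.2 and 12.8 CPM to 14.9, 14.7, 12.4, 8.64 and 7.09 CPM, a change of -0.82 ± 0.31 that was not called (edgeR adjusted p = 0.0801). The times overlapped in both strains. The interaction was -1.21 and not called without BALB/c water 0 h replicate 1, and without the 2 highest libraries of 12 h it was -1.74 and not called. For the other 41 genes the interaction was not called, with values from -1.07 (Ifi27l2a) to 0.41 (Eif2ak2). The median over the 42 genes was -0.12, and 13 of the 42 values lay above 0. The lack of a call does not show that the strains respond alike.

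Members also moved together from library to library within groups. After group means were removed from log2 CPM, the 861 pairs of members had a median Pearson correlation of 0.356 over all libraries (65 and 63 by strain), and 61.8% of pairs were over 0.3. Pairs of a member with any other gene had a median of 0.00706, with 9.96% over 0.3. Highest were Ifit1 with Ifit3 (0.833), Xaf1 with Rtp4 (0.814), Stat2 with Oas2 (0.811) and Igtp with Irgm1 (0.781), and lowest was Dtx3l with Ifi35 (-0.704). The points share libraries, depth and tissue composition, so these values are a description. On average Isg15 (0.481) and Rtp4 (0.473) were closest to the rest of the set, and Dtx3l (0.0703), Gbp2 (0.134) and Ifi35 (0.147) were farthest.

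Other genes of the pathway came from lists of interferon ligands, receptors, inducers, negative regulators, antigen presentation and further targets. Of 21 interferon ligand genes 16 had no read in any library, and 19 had at most 5 reads in every library. Ifnb1 had 2 reads in all and Ifng 123, in 49 libraries, and the 1 ligand that was tested, Ifnk, had 658 reads over all libraries. Reads in whole liver at this depth limit what can be seen of ligands made by few cells.

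Among receptor genes at 12 h against 0 h on water, Ifngr1, a chain of the interferon gamma receptor, rose by 0.30 ± 0.09 (edgeR adjusted p = 0.0147). The counts of the lists that follow stand beside the 8.31% of all genes called higher in this comparison. Of 13 genes that induce interferon 3 rose: Tlr3, a sensor of double-stranded RNA (0.91 ± 0.15, edgeR adjusted p = 9.84e-07), the kinase Tbk1 (0.38 ± 0.09, edgeR adjusted p = 0.000992) and Trim25, which activates RIG-I (0.42 ± 0.12, edgeR adjusted p = 0.00573). Of 10 negative regulators 1 rose, Adar, which edits double-stranded RNA (0.49 ± 0.15, edgeR adjusted p = 0.0107), and of 13 genes of class I antigen presentation 1, the peptide transporter Tap1 (0.57 ± 0.15, edgeR adjusted p = 0.00245). Of 38 further interferon-stimulated genes 12 rose, with a median over the list of 0.32. The smallest p values were those of Lgals9 (1.27 ± 0.13, edgeR adjusted p = 3.69e-13), Trim21 (0.97 ± 0.12, edgeR adjusted p = 6.3e-11), Gbp6 (1.89 ± 0.31, edgeR adjusted p = 7.47e-07) and Irgm2 (1.09 ± 0.22, edgeR adjusted p = 9.48e-05), and Irgm2 overlaps the member Igtp on the same strand.

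Between 6 h and 12 h over all drinks, receptor and kinase genes were among those that changed, and the list counts stand beside 25.4% of all genes called higher and 26.2% lower. Ifngr2 rose by 0.62 ± 0.08 (edgeR adjusted p = 9.54e-11), Jak2 by 0.39 ± 0.05 (edgeR adjusted p = 7.67e-10), Ifngr1 by 0.33 ± 0.05 (edgeR adjusted p = 1.45e-09) and Ifnar1 by 0.31 ± 0.04 (edgeR adjusted p = 1.82e-09), while Ifnlr1, of the interferon lambda receptor, fell by 0.66 ± 0.22 (edgeR adjusted p = 0.00834). Of the 13 inducers 4 rose and 4 fell, with Trim25 at 0.66 ± 0.06 (edgeR adjusted p = 1.43e-17) and the kinase Ikbke at -1.16 ± 0.11 (edgeR adjusted p = 1.08e-16). Of the 10 negative regulators 3 rose and 1 fell, and of the 13 genes of antigen presentation 3 rose and 2 fell. Of the 38 further targets 11 rose and 4 fell, led by Trafd1 (0.60 ± 0.06, edgeR adjusted p = 6.78e-16, higher in 38 of 38) and Isg20 (-1.0 ± 0.09, edgeR adjusted p = 4.86e-19, lower in 38 of 38).

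Between strains over all conditions, 28 of the 38 further targets were lower in BALB/c and 2 higher, with a median of -0.38, where 26.5% of all genes were called lower and 28.7% higher. Examples were Ifi204, a DNA sensor (-1.76 ± 0.08, edgeR adjusted p = 5.11e-42), and Tor3a (-1.33 ± 0.07, edgeR adjusted p = 6.52e-36). Of the 13 inducers 7 were lower and 1 higher, with the transcription factor Irf5 at -1.82 ± 0.07 (edgeR adjusted p = 3.78e-49). Of the 13 genes of antigen presentation 9 were lower and 1 higher, and of these H2-K1 differed by -5.51, in a locus where the strains carry different haplotypes and alignment used a C57BL/6J assembly.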

How the data were processed

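Liver RNA was sequenced in 65 C57BL6/J and 63 BALB/c libraries, in 26 groups. The authors deposited 1 table with raw read counts and FPKM values per gene, with gene symbols, types and GRCm38 coordinates. The submitters' processing notes name CASAVA, STAR 2.5, HTSeq 0.6.1, DESeq2 and the builds mm10 and GRCm38, with no order. The strand setting of the counting is not stated there. Groups were taken from the sample labels, and 0 sample columns were left unmatched.

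Counts were fitted as deposited with edgeR 4.0.16 in R 4.3.3 (filterByExpr, TMM scaling, quasi-likelihood test) in 1 model of all 26 groups, so that every comparison shares 1 estimate of the spread. P-values were adjusted over 16886 genes by the Benjamini-Hochberg method, with a threshold of 0.05. Contrasts average both strains with equal weight. Log2 CPM for mean levels and correlations used a prior count of 1. FPKM values, as the authors deposited them, served only to compare levels between genes. A library was counted as higher or lower against the mean of the control group of its strain and drink. A script was tested on simulated data for water at 12 h against 0 h over 16590 genes: it called 50%, 84%, 94% and 98% of genes changed 1.5, 2, 3 and 4 times, with 10 false calls.

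The 42 genes and the gene lists were chosen with earlier results of these data known. Named in full were the most abundant gene of each role and, in each comparison, up to 5 called genes with the smallest p in each direction, and from each pathway list up to 4. Each comparison was repeated under 17 other settings, 12 of them planned: DESeq2 1.42.0, its size factors, all genes without the low-count filter, a block for the replicate number, the letter appended to 34 library names as a covariate, the libraries without it, each replicate number left out, and the libraries of the contrast alone. The 5 settings that leave out libraries that stood apart, and the comparison of 6 h with 3 h, were added after seeing the data. Depth limits genes near 1 CPM most. A gene of the receptor and signalling list is not reported here, and no count is given for that list.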

Additional observations from a re-analysis of the deposited data

Results flagged for a closer look

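Single libraries that lay far from the others of their group were looked for in 58 groups of 4 or 5 libraries, over the mean level of the 42 genes and the CPM of selected members, and 10 were found. A rate of about 1 in 20 by chance would hold for separate groups. The same libraries recur here for several members that moved together, so the 10 cannot be set against that rate. The mean level of BALB/c water 0 h replicate 1 was -1.24 and that of C57BL6/J glucose 12 h replicate 4 was 0.699. In BALB/c water 0 h replicate 1 Usp18 had 56.7 CPM while most other members had their lowest value. In C57BL6/J water 12 h replicate 4 Isg15 had 29.2 CPM and Ifit1 43.6 CPM, and in BALB/c water 12 h replicate 1 Ifit1 had 0.948 CPM. In C57BL6/J at 0 h, replicate 1 had 3.21 CPM of Isg15 and 282 CPM of Iigp1, and replicate 2 had 44.0 CPM of Igtp and 13.2 CPM of Oasl1.

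The change of Usp18 from 0 h to 12 h on water differed between the strains by -2.07 on the log2 scale (BALB/c minus C57BL6/J, edgeR interaction test, adjusted p = 0.0123), and without BALB/c water 0 h replicate 1 by -1.21, which was not called. What sets that library apart was not tested.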

How the results depend on the processing

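No called value changed direction under any of the 17 settings. Of the counts of called genes over all settings, 557 stayed within 1.5 times the reported count and 55 did not. Of the values of single genes, called or not, 4718 kept their side of the threshold, 233 lost their call and 47 gained one. On water, 6 of the 15 genes called higher at 3 h were called under every setting. The same held for 11 of 22 at 6 h and 19 of 25 at 12 h. Leaving out each replicate number in turn gave 7 to 14 genes higher at 3 h on water, 0 to 1 lower at 3 h, 11 to 22 higher at 6 h, and 3 to 6 lower at 12 h against 6 h. It gave 0 to 1 higher and 4 to 10 lower in BALB/c at 0 h, 4 to 8 higher in BALB/c over all conditions, and 0 to 1 for the strain by time interaction on water. It gave 0 to 0 genes lower with sucrose at 6 h, 1 to 2 with fructose at 3 h and 0 to 2 with fructose at 6 h, and 5 to 8 higher and 0 to 1 lower at 6 h against 3 h. The libraries of the contrast alone gave 9 genes higher at 3 h, 2 lower and 0 higher in BALB/c at 0 h, 9 lower with fructose at 6 h and 0 for the interaction. Without BALB/c water 0 h replicate 1, 0 were lower at 3 h, 5 lower and 0 higher in BALB/c at 0 h, and 0 in the interaction, and without it and C57BL6/J water 0 h replicate 2 the last 3 values were 3, 0 and 0. Dropping the 14 libraries close to another time left 3 lower at 12 h against 6 h, 6 lower and 0 higher in BALB/c at 0 h, 0 in the interaction and 1 lower with fructose at 3 h. Without the 2 highest libraries of 12 h the interaction gave 0. The libraries without an appended letter gave 0 for the interaction, for sucrose at 6 h, for fructose at 3 h and 6 h, and for genes lower at 6 h against 3 h. With no filter on low counts, sucrose gave 0 and fructose 2 lower at 6 h. These settings use fewer libraries or test other genes, and further causes were not tested.

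The labels do not say that a replicate number marks shared animals, litters or days. Over 35 pairs of same-numbered samples the deviations from the group means correlated from -0.116 to 0.403 (median 0.123), with 19 over 0.1. As not every pair was over 0.1, the numbers were not taken as pairs. This rule cannot decide whether some same-numbered samples share an effect. The appended letter was spread unevenly over the replicate numbers, so number and letter are partly mixed. With the number as a block, 15 genes were higher at 3 h, 22 at 6 h and 25 at 12 h on water, 12 were lower in BALB/c at 0 h, and 3 and 6 were lower with fructose at 3 h and 6 h.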
